A study of Mus musculus with 16 samples.

Results

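The 10 genes described here are transcripts that macrophages of the spleen make, read here in RNA from sorted splenic B-cells. They were taken by symbol from the deposited expression table, which lists 38355 genes, and all 10 were found: Lyz2, Emr1, Csf1r, C1qa, C1qb, C1qc, Vcam1, Hmox1, Slc40a1 and Mpeg1. The groups were T1, T2, marginal zone (MZ) and follicular (FO) B-cells from Mir146a-/- mice (KO) and from wild-type mice (WT), both of C57BL/6 background, with 2 libraries in each of the 8 groups. T1 and T2 are the transitional stages that B-cells pass through in the spleen before they become FO or MZ cells. Each sort started from spleens pooled from 3 to 5 mice, and the KO mice lack miR-146a in every cell, B-cells and macrophages alike. The age of the mice whose cells were sequenced is not given in the sources used here.

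Macrophages of the splenic red pulp take up aged red blood cells, break down their heme and return the iron to the blood. They also secrete complement C1q and carry the CSF-1 receptor and the surface protein F4/80. B-cells are sorted from the same cell suspension by surface proteins, here CD23, CD93, IgM and CD21 within the B220+ cells, and the stain listed for these subsets holds no myeloid marker. In bulk RNA a level cannot tell fewer cells of a type from less RNA per cell, which holds for every value below.

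The libraries were scaled by 9003343 to 26386684 reads each, with the FO libraries the deepest. B-cell markers were at 4837 to 7608 RPKM in sum in every library. RPKM is reads per kilobase of gene model, scaled to the mapped reads of the library, so levels of different genes can be set side by side per length. The row for the deleted microRNA gene was at 0 in all 8 KO libraries and held 1 read in each of the 2 WT FO libraries, and it was at 0 in the other 6 WT libraries too, so this polyA-selected RNA does not check the genotype labels. In the 4 T1 libraries 6 plasma cell genes summed to 687 to 4178 RPKM, against 91.5 to 224 RPKM elsewhere.

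Lyz2, which encodes the lysozyme of macrophages, monocytes and neutrophils, lies at chr10:117277331-117282321 (GRCm38, minus strand) beside its near copy Lyz1. Of 444 coding bases 422 (95%) are identical between the genes, and 308 of 1217 windows of 100 bases in the Lyz2 transcript (25.3%) match Lyz1 with at most 2 mismatches, the number the alignment allowed. The stretch of 30 coding bases with the most differences is shown for both genes, since reads over it can be placed in 1 of them. It runs from coding base 103 to 132, counted from the A of the start codon, in exon 1 of 4, at chr10:117282111-117282140 for Lyz2 and chr10:117292707-117292736 for Lyz1, both on the minus strand (GENCODE M21). Capitals mark the 7 bases that differ.
Lyz2: atggCtggctacTAtggAgtcaGCctggcC
Lyz1: atggAtggctacCGtggTgtcaAGctggcT
Lyz1 was at 0 to 0.329 RPKM, at most 6 reads in a library, whereas Lyz2 reached 48.7 RPKM. Only uniquely aligned reads were kept, so reads that fit both genes were left out and the Lyz2 level may be understated.

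C1qa, C1qb and C1qc encode the chains of C1q, the first component of the classical complement pathway, and lie next to each other on chromosome 4 (chr4:136895917-136898803, chr4:136880129-136886187 and chr4:136889804-136893065, all minus strand). The 3 chains together had 10 and 114 reads in KO T1 libraries, against 8 and 87 in WT T1. In T2 they had 88 and 301 reads in KO, against 117 and 210 in WT. MZ libraries held 29 and 138 in KO, against 56 and 86 in WT. The FO libraries, although the deepest, held the fewest in sum, 5 and 57 in KO against 10 and 66 in WT. In each of the 8 groups the second library had more C1q reads than the first, and the KO and WT pairs overlapped in every subset. Exact Poisson 95% intervals, which cover counting error only, ran from 1.62 to 11.7 reads for the lowest library (KO FO replicate 1) and from 268 to 337 for the highest (KO T2 replicate 2). Per chain, the mean level over 4 libraries was highest in T2, at 4.08 ± 1.78 RPKM for C1qa, 4.42 ± 1.43 for C1qb and 2.71 ± 1.33 for C1qc, and lowest in FO, at 0.488 ± 0.435, 0.435 ± 0.383 and 0.232 ± 0.259 (SD, n = 4 each).

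Csf1r, the receptor for the growth factor on which most tissue macrophages depend, was at 0.586 and 3.20 RPKM in KO T1, against 0.212 and 1.37 RPKM in WT T1. It stood at 1.70 and 4.85 RPKM in KO T2, against 3.001 and 4.24 in WT T2. In MZ it was at 1.30 and 1.83 RPKM in KO, against 0.928 and 1.16 in WT. FO cells had 0.110 and 0.661 RPKM in KO, against 0.202 and 0.707 in WT. All 4 T2 libraries lay above all 4 FO libraries, and the 4 MZ libraries lay between the FO and T2 libraries apart from 1 overlap with T2: KO MZ replicate 2 was above KO T2 replicate 1.

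Hmox1 (heme oxygenase 1, which cleaves heme) and Slc40a1 (ferroportin, which exports iron) are the members that handle the products of eaten red cells. Hmox1 was at 0.870 and 5.51 RPKM in KO T1, against 0.627 and 4.66 in WT T1, and at 3.58 and 10.1 RPKM in KO T2, against 6.37 and 6.76 in WT T2. In MZ it was at 1.95 and 4.92 RPKM in KO, against 1.94 and 3.13 in WT, and in FO at 0.186 and 1.51 in KO, against 0.491 and 1.22 in WT. The order of the subset means was T2 (6.71 ± 2.67), MZ (2.99 ± 1.41), T1 (2.92 ± 2.53) and FO (0.853 ± 0.618 RPKM; SD, n = 4 each), with MZ and T1 within each other's spread. Slc40a1 took the same order at its ends, with a mean of 4.798 ± 1.98 RPKM in T2 and 0.440 ± 0.370 in FO, and its lowest value, 0.0397 RPKM in KO FO replicate 1, was 3 reads. Vcam1, an adhesion molecule on red pulp macrophages and on stroma and endothelium, was at 3.04 and 5.95 RPKM in KO T2 and 4.18 and 3.39 in WT T2. Its T1 libraries were at 0.237 and 2.47 RPKM in KO and 0.164 and 1.97 in WT, and every T2 library was above every T1, MZ and FO library.

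Lyz2 had the widest gap in RPKM between 2 libraries of a group, 2.55 and 40.9 in KO T1, against 2.08 and 9.37 in WT T1. In T2 it was at 22.0 and 48.7 RPKM in KO, against 14.9 and 33.9 in WT, and in MZ at 10.2 and 16.7 in KO, against 2.79 and 10.9 in WT. FO libraries were at 1.56 and 9.82 RPKM in KO, against 0.808 and 6.50 in WT. T2 libraries were above all FO libraries, while KO and WT overlapped within every subset.

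Emr1, the gene of F4/80 (Adgre1 in newer annotation), varied over a narrower range, 7.02-fold from lowest to highest library, than the 44.1- to 194-fold range of the 8 members other than Emr1 and Mpeg1. It was at 1.79 and 3.73 RPKM in KO T1, against 1.84 and 3.19 in WT T1, and at 3.08 and 4.78 in KO T2, against 4.66 and 4.23 in WT T2. MZ libraries had the lowest values, 0.822 and 1.37 RPKM in KO, against 0.681 and 0.978 in WT. FO libraries were at 1.71 and 2.01 RPKM in KO, against 2.18 and 1.81 in WT. Emr1 thus ranked T2, T1, FO, MZ, and both FO and T1 lay above MZ with no overlap, although FO held the fewest C1q reads in sum. In KO FO replicate 1, 124 Emr1 reads stood beside 5 reads of the C1q chains and 12 of Csf1r.

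Mpeg1, a pore-forming protein of phagocytes also called perforin-2, had a pattern of its own. In MZ it was at 108 and 80.8 RPKM in KO, against 72.4 and 78.5 in WT. The other subsets were at 6.62 to 18.6 RPKM, so no MZ library overlapped with any of them. Outside MZ the levels were 12 and 18.6 RPKM in KO T1 against 7.96 and 10.7 in WT T1, 13.9 and 12.9 in KO T2 against 13.45 and 11.3 in WT T2, and 11.4 and 9.24 in KO FO against 6.62 and 6.72 in WT FO. Mpeg1 reached its highest level in KO MZ replicate 1, where the C1q chains had 29 reads, and the other 9 members reached theirs in KO T2 replicate 2.

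**Figure D1:**
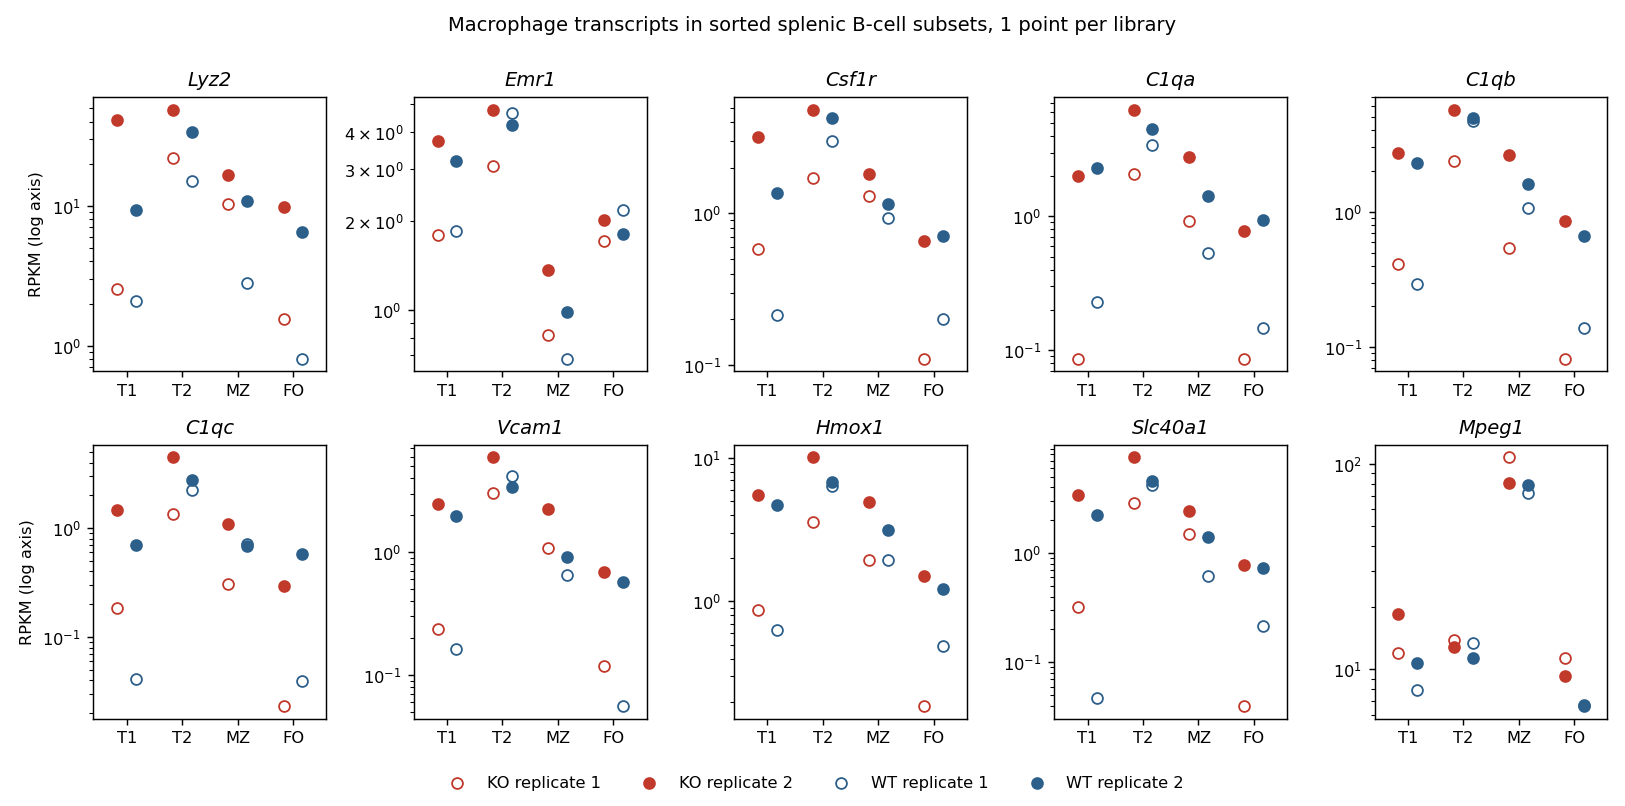
RPKM (log axis) of the 10 members in each of the 16 libraries by subset, KO left of WT, open points replicate 1 and filled points replicate 2. The highest library is in T2 for 9 members, replicate 1 of T1 and FO lies far below replicate 2 for 8 of them, and Mpeg1 is high in MZ at 72.4 to 108 RPKM.

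The 2 libraries of a group differed in these transcripts by more than they did in most genes. On the log2(RPKM + 0.5) scale, replicate 2 was above replicate 1 for 10 of 10 members in KO T1 and in WT T1, with median differences of 1.92 and 1.86, while the medians over 12507 tested genes were -0.05 and 0.01. A difference beyond 1 was found for 8 members in KO T1 and 8 in WT T1, against 6.47% and 5.81% of all tested genes. The rise in T1 was not particular to these transcripts. In replicates 1 and 2, T cell genes summed to 12.54 and 32.37 RPKM in KO T1, against 8.958 and 33.29 in WT T1. NK cell genes summed to 1.369 and 9.327 RPKM in KO T1, against 0.5685 and 6.753 in WT T1. Plasma cell and monocyte sums were also higher in replicate 2 of both T1 groups. The neutrophil sum rose in KO T1 only, and the B-cell and the endothelial and stromal sums fell in both. In FO, 9 of 10 members were higher in replicate 2 in KO (median 1.03) and 9 of 10 in WT (median 0.83). KO T2 had a median of 1.196 and WT T2 one of 0.08, the smallest gap of the 8 groups. KO MZ and WT MZ were at 0.74 and 0.37. The labels give no sort date or batch beyond the replicate number.

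**Figure D2:**
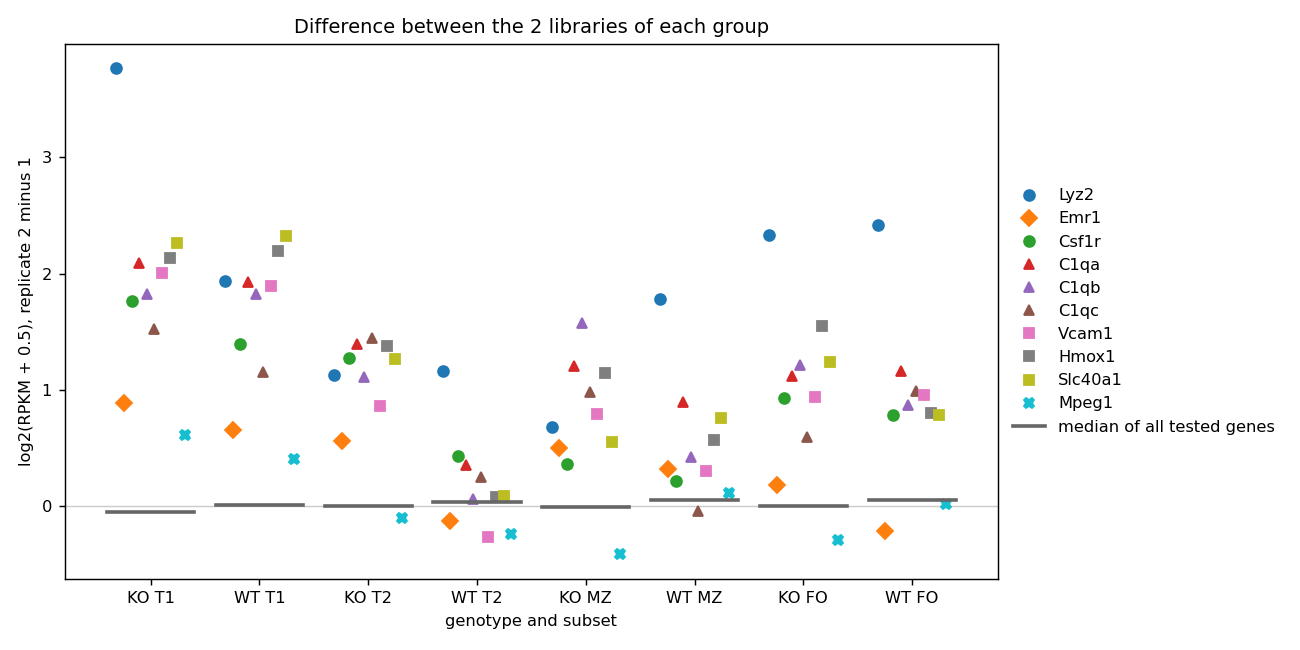
Replicate 2 minus replicate 1 on the log2(RPKM + 0.5) scale for each member in each of the 8 groups, with grey bars at the median of all 12507 tested genes. All 10 members are above 0 in both T1 groups, and the bars lie between -0.05 and 0.06.

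The comparison of FO with T2 asks how the transcripts differed between the sorted follicular cells and the sorted T2 cells. Whether a difference lay in the B-cells or in other cells carried into the sorts was not tested. C1qa, C1qb, C1qc, Csf1r, Hmox1, Slc40a1 and Vcam1 fell in FO, by 2.09 (Csf1r) to 2.52 (Slc40a1) on the log2 scale with genotypes averaged. The call used limma on log2(RPKM + 0.5) over 12507 genes and asked for an adjusted p under 0.05 (Benjamini-Hochberg), a change beyond 1 on the log2 scale and a group mean over 1 RPKM. In this comparison 1.14% of all tested genes passed, and 7 of 10 members did. Vcam1 changed by -2.47 (SE 0.52, limma adjusted p = 0.0228), C1qc by -2.11 (SE 0.45, limma adjusted p = 0.0241) and C1qa, the weakest of the 7, by -2.24 (SE 0.60, limma adjusted p = 0.0446). C1qc passed the filter on low values only through the T2 groups, where it is high, and was also called with no filter (limma adjusted p = 0.0452). The call still asked for a group mean over 1 RPKM, which C1qc reached only in T2. With no filter the calls of Csf1r, C1qa, C1qb, Hmox1 and Slc40a1 were lost (limma adjusted p of 0.0502 to 0.0825). Lyz2 had the largest change, -2.89, and the largest error (SE 0.91, limma adjusted p = 0.0667), and was not called. Emr1 (-0.94) and Mpeg1 (-0.60) passed the p criterion, with limma adjusted p = 0.0358 and 0.0371, and did not pass the fold criterion. The median over the 10 members was -2.34, against 0.00 over all tested genes. T2 lay above FO without overlap of the 4 and 4 libraries for 9 of 10 members and for 13.4% of all tested genes.

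Counts with 1 library left out, here and below, are of members only and carry no share of all tested genes. A changed count is therefore not read as a result about the members. The number of members called in FO against T2 changed when single libraries were left out. It was 0 of 10 without KO T2 replicate 1, without WT T2 replicate 1, without KO FO replicate 1 or without WT FO replicate 1. It was 2 without WT FO replicate 2, 3 without KO T2 replicate 2, and 4 without WT MZ replicate 1 or WT MZ replicate 2. Leaving out the 4 replicate 1 libraries of T1 and FO together gave 0 calls among members, with limma adjusted p of 0.156 to 0.276 for the 7, and 0.00789% of all tested genes called. The differences of the 7 kept their sign there, at -1.66 to -2.01. Within replicate 1 alone the median over members was -2.52 and within replicate 2 alone -2.14, and all 10 members were lower in FO in both genotypes in both. For the 9 members without overlap between T2 and FO that direction was already given, so it adds no separate support. The replicates come from pooled spleens and are described by the study as biological, and p-values measure the spread between these libraries.

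In KO alone no member and 0% of tested genes passed for FO against T2. There limma gave an unadjusted p under 0.05 for 8 of 10 members and 1498 of all tested genes, and limma-voom on the recovered reads called 0 members as well. In WT alone 0 members passed while 0.184% of tested genes did, with 10 of 10 members and 2613 genes at an unadjusted p under 0.05 in limma and 0 members called in limma-voom. The difference between the KO change and the WT change in FO against T2 was called for 0 members and 0.008% of tested genes, with 0 members and 123 genes at an unadjusted limma p under 0.05 and 0 genes called in limma-voom. For single members it ran from -0.27 (Slc40a1) to 0.48 (Mpeg1), with standard errors of 0.30 to 1.83.

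For T2 against T1, the step between the transitional stages, C1qc and Vcam1 rose, by 1.64 (SE 0.45, limma adjusted p = 0.0219) and 1.72 (SE 0.52, limma adjusted p = 0.0326). These are 2 of 10 members, where 5.43% of all tested genes passed. The other 8 had differences of 0.12 (Mpeg1) to 1.88 (Lyz2). An unadjusted limma p under 0.05 was found for 8 of 10 members and for 4758 of all tested genes (38%). The median over members was 1.60, against 0.08 over all tested genes. C1qc passed the filter on low values only through T2 here too, and with no filter it was called as well (limma adjusted p = 0.0457). Its group mean over 1 RPKM, which the call still asked for, was again only in T2. Vcam1 was not called with no filter (limma adjusted p = 0.0677). Only Vcam1 had all T2 libraries above all T1 libraries, which 16% of tested genes did. T1 carried the wide gaps between replicates, and the median over members was 2.14 within replicate 1 and 0.94 within replicate 2. No member was called without KO T1 replicate 1, WT T1 replicate 1, KO T2 replicate 2 or WT T2 replicate 2, 1 was without WT T2 replicate 1, and 8 and 7 were without KO T1 replicate 2 and WT T1 replicate 2.

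MZ against T2 gave 4 calls of 10, where 10.8% of all tested genes were called. Mpeg1 rose by 2.66 (SE 0.15, limma adjusted p = 3.6e-07). Emr1 fell by 1.69 (limma adjusted p = 0.00018), C1qc by 1.37 (limma adjusted p = 0.0308) and Vcam1 by 1.47 (limma adjusted p = 0.0411). The remaining 6 had differences between -1.05 (Hmox1) and -1.60 (Lyz2), and the median over members was -1.38, against 0.02 over all tested genes. C1qc, which passed the filter only through T2, was not called with no filter (limma adjusted p = 0.0581). The calls of Mpeg1 and Emr1 held in all 26 alternative settings run for this comparison. Those of C1qc and Vcam1 were lost without KO T2 replicate 2, WT T2 replicate 1, WT T2 replicate 2, KO MZ replicate 1, WT MZ replicate 1 or WT MZ replicate 2 (2 calls in each case), and 7 members were called without KO T1 replicate 1 or KO T1 replicate 2.

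Taken by genotype, Mpeg1 rose in MZ against T2 by 2.76 in KO and by 2.56 in WT (limma adjusted p = 9.3e-06 and 1.5e-05). Emr1 fell by 1.47 in KO and by 1.90 in WT (limma adjusted p = 0.00757 and 0.00152). These were the 2 members called in each genotype, where 9.44% of tested genes passed in KO and 10.6% in WT. The call of Emr1 in KO was lost without KO T2 replicate 2 or KO MZ replicate 1 (limma adjusted p = 0.0606 and 0.0707). The KO change minus the WT change was called for 0 members and 0.008% of tested genes, with 0 members and 208 genes at an unadjusted limma p under 0.05 and 0 genes called in limma-voom.

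Mpeg1 was the 1 member called in MZ against FO, 3.26 higher on the log2 scale (SE 0.15, limma adjusted p = 9.3e-08), where 9.2% of tested genes were called. Emr1 (-0.75, limma adjusted p = 0.0247) passed the p criterion there and did not pass the fold criterion. Csf1r, Hmox1 and Mpeg1 had all 4 MZ libraries above all 4 FO libraries, as 25.3% of tested genes did. Against T1, Mpeg1 rose in MZ by 2.78 (limma adjusted p = 1.6e-07) and Emr1 fell by 1.07 (limma adjusted p = 0.00239), and 17.4% of tested genes passed. Emr1 missed the fold criterion without KO T1 replicate 2, WT T1 replicate 2, KO MZ replicate 1 or WT MZ replicate 1, at -0.85 to -0.99. The other 8 members differed between MZ and T1 by 0.18 to 0.41, with standard errors of 0.45 to 0.91. FO against T1 gave 0 calls among members where 9.5% of tested genes passed. There Mpeg1 alone had an unadjusted limma p under 0.05, as 6189 genes did. Mpeg1 (-0.48, limma adjusted p = 0.0245) passed the p criterion and did not pass the fold criterion, and limma-voom called 0 members. Without KO T1 replicate 1, 1 member was called.

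**Figure D3:**
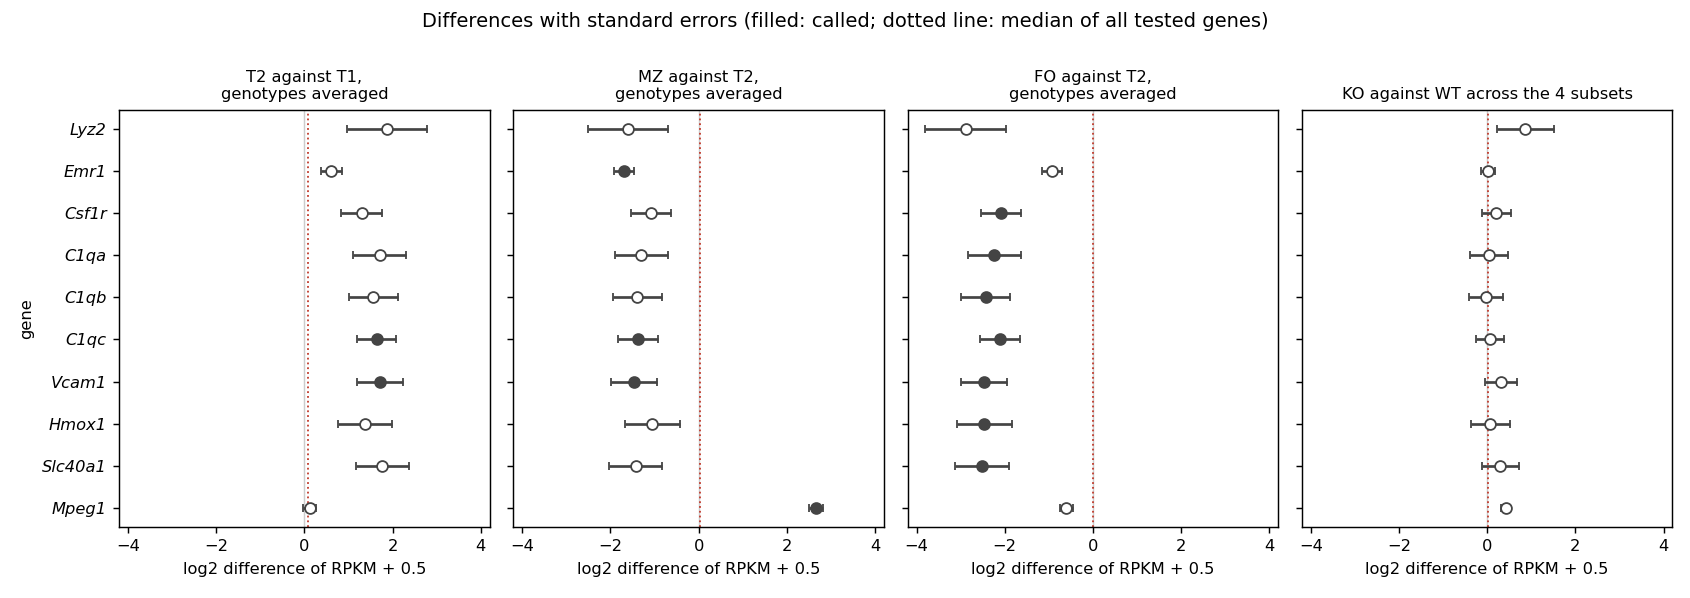
Differences on the log2(RPKM + 0.5) scale with standard errors for the 10 members in T2 against T1, MZ against T2, FO against T2 (genotypes averaged) and KO against WT across the 4 subsets, from 1 limma model of 16 libraries. Filled points are called, dotted lines mark the median of all tested genes, and FO against T2 holds 7 filled points, KO against WT none.

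Between genotypes no member was called in any subset. KO against WT gave 0.04% of tested genes called within T1, 0.048% within T2, 0.064% within MZ, 0.032% within FO and 0.072% across the 4 subsets, with 0 of 10 members in each. At an unadjusted limma p under 0.05 there was 1 member in T1, 0 in T2, 0 in MZ, 1 in FO and 1 across the subsets, in each case Mpeg1, and 439, 421, 206, 115 and 998 of all tested genes. Limma-voom called 0 members in each of the 5 comparisons. Mpeg1 was 0.42 higher in KO across the subsets (SE 0.11, limma adjusted p = 0.305), and its KO libraries lay above the WT libraries in T1, MZ and FO, as in 1.42% of all tested genes. Lyz2 was 0.86 higher in KO (SE 0.65, limma adjusted p = 0.760). For each of these 2 genes the KO library was above the same-numbered WT library in 8 of 8 cases, by 0.24 to 2.07 for Lyz2 and 0.04 to 0.76 for Mpeg1, which 2.25% of all tested genes shared. C1qa was higher in KO in 3 of 8 such cases, and the other members in 4 to 7. Across subsets, Emr1, Csf1r, the C1q chains, Vcam1, Hmox1 and Slc40a1 differed by -0.03 to 0.31, with standard errors of 0.16 to 0.44.

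Lyz2 is also a gene of neutrophils, and a list of 12 neutrophil genes was summed in each library. It summed to 11.02 and 58.5 RPKM in KO T1, against 5.54 and 5.51 in WT T1, and to 56.0 and 70.2 in KO T2, against 61.9 and 37.3 in WT T2. In MZ it summed to 21.4 and 34.3 RPKM in KO, against 6.23 and 10 in WT, and in FO to 2.83 and 25.9 in KO, against 0.834 and 13.1 in WT. KO and WT overlapped in T2 and FO and not in T1 and MZ. Of its 7 tested genes 6 were above 0 for KO against WT across the subsets, with a median of 1.17 against 0.02 over all tested genes. Ltf and Lcn2 passed the filter only through KO T2, and Camp, Ngp and Retnlg through more KO than WT groups. Being high in KO thus helped these genes to be tested, which limits the direction and the median. Limma called 0 of the 7, with 5 at an unadjusted p under 0.05, and limma-voom called 0. In FO against T2, S100a8 (-3.05), S100a9 (-2.89), Retnlg (-1.45) and Lcn2 (-1.09) fell, 4 of the 7 tested, where 1.14% of all tested genes were called. Lcn2 passed the filter only through KO T2, where it is high, and was counted with that limit. Ly6g, the defining surface marker of neutrophils, was at 0 in 12 of 16 libraries, as was Elane. The part of neutrophil RNA in the Lyz2 values was not tested.

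Across the 16 libraries the 8 members other than Emr1 and Mpeg1, set apart after their values were seen, varied together. The 28 pairwise Pearson correlations of log2(RPKM + 0.5) ran from 0.874 to 0.985 (median 0.958), and the Spearman median was 0.950. After each group's mean was taken out, the median was 0.948. Emr1 correlated with the 8 at a median of 0.603 and, on deviations from the group means, at 0.861. Mpeg1 correlated with them at 0.157 and 0.340. The points share libraries, depth and sorts, so these are descriptions of the 16 libraries.

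Ratios to Csf1r within a library varied less than the levels for 7 of the 9 other members, in the 12 libraries with enough Csf1r reads and over all 16. In the 12 libraries with at least 80 reads of Csf1r, the ratio of Hmox1 to Csf1r spanned 1.498 to 3.40, a 2.27-fold range, while the Hmox1 level spanned 8.26-fold in the same libraries. The ratio of Slc40a1 spanned 2.50-fold there, Vcam1 2.54-fold, C1qa 2.91-fold, C1qc 3.94-fold, C1qb 4.05-fold and Lyz2 4.93-fold, against 10.3- to 17.4-fold for the levels of these 6. Over all 16 libraries the ratios of the 7 spanned 2.29-fold (Hmox1) to 11.4-fold (C1qa), and their levels 54.2-fold (Hmox1) to 194-fold (C1qc). The ratio of Mpeg1 spanned 31.1-fold in the 12 libraries, against 16.05-fold for its level. That of Emr1 spanned 4.84-fold there, against 7.02-fold for its level, and 24.7-fold over all 16 libraries. It reached 15.6 in KO FO replicate 1 and 10.8 in WT FO replicate 1, where Csf1r had 12 and 26 reads.

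**Figure D4:**
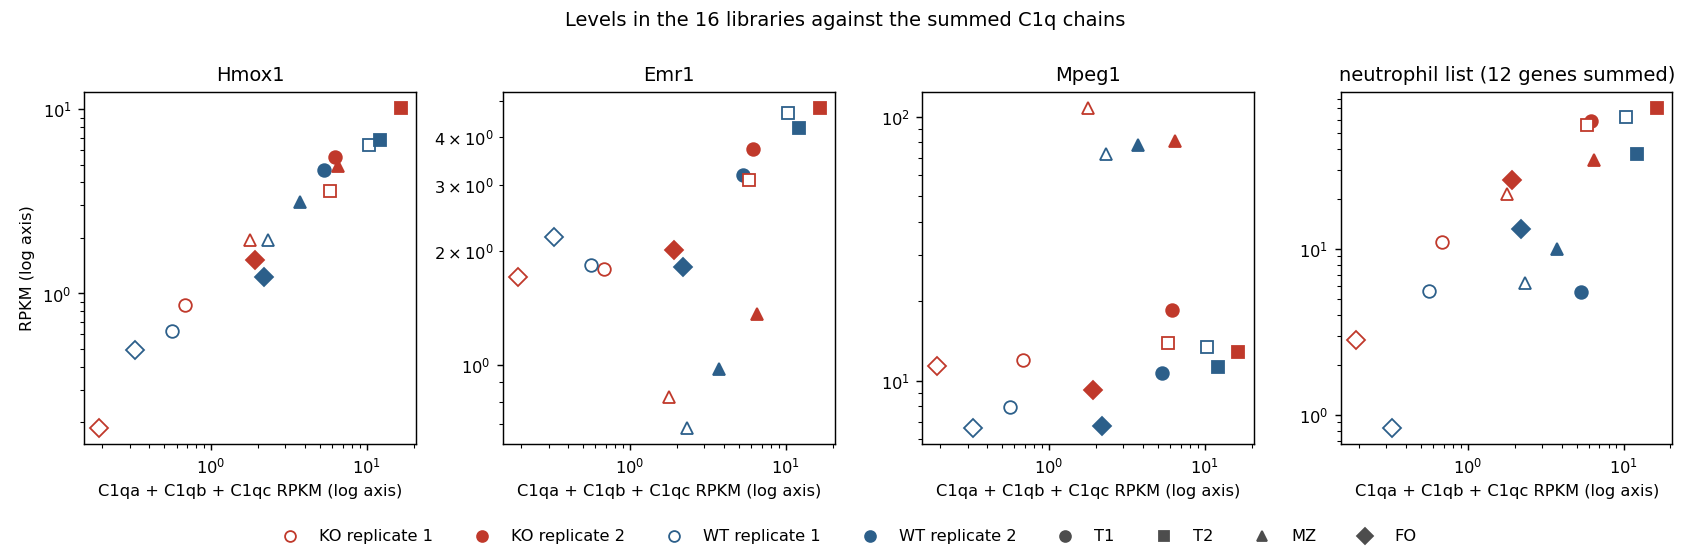
RPKM of Hmox1, Emr1, Mpeg1 and the summed neutrophil list against the summed RPKM of C1qa, C1qb and C1qc (log axes), 1 point per library, KO red, WT blue, shapes by subset, open points replicate 1. Hmox1 follows the C1q chains over the whole range, Emr1 stays at 1.71 to 2.18 RPKM in the FO libraries, and Mpeg1 sets the 4 MZ libraries apart.

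The tested genes most like the members were sought by Pearson correlation, over the 16 libraries, with the mean of the 10 members on the log2 scale. Over all tested genes the median was 0.035, and 15 genes exceeded 0.9, 8 of them members, which are themselves part of that mean. The 7 others were Emr4 (0.968), a relative of Emr1, the Fc receptor Fcgr3 (0.945), the integrin Itgad (0.943), the lectin Fcna (0.942), Hpgd (0.936), which degrades prostaglandins, the receptor kinase Axl (0.927) and Treml4 (0.917). The next were Clec4n, Ccl6, the G-CSF receptor Csf3r, Chi3l3, Clec7a, Fn1, Higd1a and Fcer1g, at 0.892 to 0.869. The first 7 averaged 0.529 (Fcgr3) to 1.04 RPKM (Axl) over the libraries, each with its highest library in T2. Treml4 passed the filter only through KO T2, and Hpgd only through the T2 groups. Genes this low pass it through groups where they are high, so the filter shaped which genes could rank here. Higd1a, a mitochondrial protein, was at 6.33 to 9.69 RPKM in every library. Although also part of the mean, Emr1 ranked 434 and Mpeg1 2605 by this measure.

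Of 15 other red pulp macrophage genes 8 were tested, and the list summed to 7.45 to 20.2 RPKM in T1, 13.4 to 23.3 in T2, 16.5 to 20.0 in MZ and 7.21 to 9.47 in FO. In FO against T2, Hpgd (-1.72), Axl (-1.61) and Mrc1 (-1.49), the mannose receptor, fell, and all 8 were below 0 with a median of -1.14. Hpgd passed the filter only through the T2 groups, where it is high, which limits each of its calls against T2 or T1. In T2 against T1, Cd5l (1.22), a secreted scavenger protein, Hpgd (1.13) and Spic (1.099) rose. Cd68, the most abundant gene of the list, averaged 6.36 RPKM and was not called in FO against T2. Spic, the transcription factor on which red pulp macrophages depend, was highest in MZ, with a mean of 3.37 RPKM against 1.25 in T2 and 0.891 in FO. It rose in MZ by 1.16 against T2 (limma adjusted p = 0.00282) and by 1.48 against FO (limma adjusted p = 0.000685), and Hpgd (-1.22) and Maf (-1.67) fell in MZ against T2. In MZ against T1, Spic (2.26) and Cd5l (1.08) rose and Maf (-1.91) fell, and in FO against T1, Maf (-1.13) and Mrc1 (-1.34) fell. Between genotypes limma called 0 of the 8 across the subsets, with 0 at an unadjusted p under 0.05, and limma-voom called 0.

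A list of 5 genes drawn up for the macrophages that line the marginal zone, not all of them particular to these cells, was near the floor. None of the 5 passed the filter, and together they summed to 0.0201 to 1.88 RPKM. Clec4f was at 0 in all 16 libraries and Cd209b, the lectin SIGN-R1, in 13. Marco, a scavenger receptor, averaged 0.218 RPKM and Msr1 0.0797 RPKM. The 4 MZ libraries summed to 0.0869 to 0.617 RPKM, against 0.258 to 1.88 RPKM in T2.

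Of the other genes that handle iron and heme 11 were tested. Of these, limma and limma-voom called 0 in FO against T2, with 3 at an unadjusted limma p under 0.05, 4 above 0 and a median of -0.06. Fth1 and Ftl1, the ferritin chains, averaged 763 and 196 RPKM and correlated with the members at 0.059 and 0.102. In MZ against T2, Cd36 rose by 1.98 while Blvrb, which acts after heme oxygenase, fell by 1.47 and Tfrc, the transferrin receptor, by 1.41. The same 3 were called in MZ against T1 (1.26, -1.60 and -1.65), Cd36 and Blvrb in MZ against FO (2.91 and -1.64), and Cd36 and Tfrc in FO against T1 (-1.65 and -1.13).

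Lists of other cell types differed in whether they shared the order of T2 above FO. The neutrophil, erythroid, dendritic cell, and endothelial and stromal lists each summed higher in every T2 library than in every FO library. So did the B-cell list, at 5293 to 5643 RPKM in T2 against 4837 to 5214 in FO. The sort markers did too, at 5250 to 5617 RPKM against 4304 to 4870. The order is thus not particular to lists of other cell types, and 13.4% of single tested genes had it. For the T cell, monocyte, NK cell, platelet and plasma cell lists the T2 and FO sums overlapped. Of 10 T cell genes limma and limma-voom called 0 in FO against T2, with 1 at an unadjusted limma p under 0.05, and their sum was 28.7 to 31.7 RPKM in FO, against 13.8 to 30.1 in T2. The 10 monocyte genes summed to 53.7 to 76.9 RPKM in FO, against 63.8 to 103 in T2, and the 6 tested correlated with the members at -0.023 (Ms4a6c) to 0.879 (Chi3l3), with a median of 0.545. Erythroid genes summed to 1.53 to 3.10 RPKM in FO, against 7.21 to 8.67 in T2, with Car1 called (-1.39), which passed the filter only through WT T2. Dendritic cell genes summed to 1.94 to 3.15 RPKM in FO, against 3.28 to 7.46 in T2. Platelet, dendritic cell and NK cell lists summed to at most 2.80, 7.46 and 14.1 RPKM in any library. Endothelial and stromal genes summed to 52.5 to 82.3 RPKM, nearly all of it Pecam1 (mean 65.7 RPKM). The part that these cells' RNA takes in the members' values was not tested.

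The 2 most abundant genes of each list were set against the mean of the members over the 16 libraries, beside the median over the tested genes of the list. Cd5l and Cd68 of the red pulp list correlated with it at 0.790 and 0.459 (median of 8 genes 0.796). The S100 proteins of neutrophils, S100a8 and S100a9, correlated at 0.847 and 0.855 (median of 7 genes 0.714), and the globin genes Hbb-b1 and Hbb-b2 at 0.862 and 0.492 (median of 4 erythroid genes 0.580). Ly6c2 and Ms4a6c of the monocyte list were at 0.374 and -0.023. The granzyme gene Gzma correlated at 0.744 and Prf1, also of the NK cell list, at 0.082 (median of 3 genes 0.599). Itgax and Ccr9 of the dendritic cell list were at 0.728 and 0.313 (median of 3 genes 0.407), Cd5 and Lck of the T cell list at 0.307 and -0.267 (median of 10 genes 0.384), and Igj and Irf4 of the plasma cell list at 0.202 and 0.221 (median of 6 genes 0.154). The platelet gene Gp1ba was at 0.123, the endothelial genes Pecam1 and Cdh5 at 0.120 and 0.073, and the B-cell genes Ms4a1 and Cd79b at 0.188 and -0.199 (median of 8 genes -0.142). The other platelet gene, Itga2b, averaged 0.362 RPKM and was not tested.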

How the data were processed

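RNA from sorted B-cells was extracted with Qiazol and on-column DNase treatment, and TruSeq libraries from RNA with a RIN over 8 were sequenced on an Illumina HiSeq as single reads of 100 bases. Per the study's methods the authors aligned reads to mm10 (GRCm38) with TopHat, allowing 2 mismatches, kept unique alignments and deposited RPKM values made with their own Perl scripts; versions of the tools are not stated in the sources used here. They tested read counts, which were not analysed here, with DESeq and edgeR. From the deposited RPKM, whole reads were recovered for 99.97% of the 23194 genes above 0 (tolerance 0.01 reads), at the exon length of GENCODE M21 for 13395 and at another length for 9793.

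RPKM values were tested with limma 3.58.1 (R 4.3.3) on log2(RPKM + 0.5), which understates changes of low genes, in 1 model of 8 groups and 16 libraries. The 12507 genes with a group mean over 1 RPKM in at least 1 group were tested, with Benjamini-Hochberg adjustment per comparison. Calls asked for an adjusted p under 0.05, a log2 change beyond 1 and a group mean over 1; differences between changes had no fold criterion. The thresholds are those of the study. On simulated data for FO against T2 (12501 genes), 79 of 100 genes changed 3-fold and 93 of 100 changed 6-fold were recovered, with 6 false calls. The changed genes were drawn at random from these genes. In the real data the median SE over all tested genes was 0.124 in this comparison. It was 0.451 (C1qc) to 0.914 (Lyz2) for the 8 members other than Emr1 and Mpeg1. The recovery rates therefore do not describe these members.

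The text names all 10 members, the 15 other tested genes most correlated with them, the 2 most abundant genes of each marker list and the called genes of the macrophage and iron lists; further genes were named after their values were seen. The members and lists were chosen with earlier results of these data known. The alternatives were 2 other pseudocounts, no filter, 2 other scalings, a replicate block, a fit of the compared libraries alone, no fold criterion, limma-voom on recovered reads and leaving out each library. 2 more, without the 4 replicate 1 libraries of T1 and FO and without the 4 T2 libraries, were chosen after seeing the data.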

Additional observations from a re-analysis of the deposited data

How the results depend on the processing

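No difference of a called member changed sign in any alternative. The counts by setting that follow, those with a replicate block included, are of members only. The share of all tested genes called can change with the setting too and is not given beside them. A changed count is therefore not read as a result about the members. The number of members called for FO against T2 (7) was 2 with no filter, 3 with only the compared libraries and 0 without the 4 replicate 1 libraries of T1 and FO, and 0 to 8 when 1 library was left out. For T2 against T1 (2) it was 1 at a pseudocount of 0.1, 5 at a pseudocount of 1, 1 with no filter, 0 with only the compared libraries and 0 without those 4 libraries, and 0 to 8 when 1 was left out. For MZ against T2 (4) it was 2 at a pseudocount of 0.1, 6 at a pseudocount of 1, 2 with no filter, 8 with quantile normalization, 9 with only the compared libraries and 8 without the 4, and 2 to 7 when 1 was left out. For MZ against T1 (2) it was 1 at a pseudocount of 1, and 1 to 2 when 1 library was left out, and for FO against T1 (0) 1 with no fold criterion and 0 to 1. For MZ against FO (1) it was 5 with only the compared libraries, 2 with no fold criterion and 2 with limma-voom, and 1 throughout when 1 library was left out. In KO alone, MZ against T2 (2) gave 1 with only the compared libraries and 1 to 2 when 1 library was left out; in WT alone (2) it gave 9 with only the compared libraries, 4 without the 4 and 2 throughout. The cause was not tested.

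The labels do not say that same-numbered libraries share a sort or a pool, and the numbers were not taken as a pairing: over all tested genes their deviations from the group means correlated at -0.361 to 0.453 over 28 pairs of groups (median 0.082), 12 of them over 0.1, although 7 to 10 of 10 members were higher in replicate 2 in each group. With a replicate block the number called was 8 for T2 against T1, 10 for MZ against T2, 8 for FO against T2, 1 for FO against T1, 7 for MZ against FO, 9 for MZ against T2 in WT and 3 for FO against T2 in WT; the block changed no other count by more than 1.5 times. KO against WT gave 0 members in every alternative. With 1 to 5 reads for a C1q chain in several replicate 1 libraries, differences between such libraries were not detectable at this depth.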
